A study of Mus musculus with 18 samples.

Results

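The import and assembly factors of mitochondria are the 54 protein-coding genes, of 45706 genes counted, that carry proteins into the mitochondrion or help to build the complexes of the respiratory chain. They were taken by name. The symbols of 45 genes begin with Tomm, Timm, Ndufaf, Uqcc, Coa or Sdhaf followed by a number, and the other 9 (*Samm50*, *Pam16*, *Dnajc19*, *Grpel1*, *Surf1*, *Sco1*, *Sco2*, *Bcs1l* and *Oxa1l*) were listed one by one. By role, 30 genes act in import and insertion and 24 in the assembly of respiratory complexes. The rule used symbols alone. *Tomm6os*, an antisense RNA whose symbol begins in the same way, is not protein-coding and was left out.

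Nearly all mitochondrial proteins are made in the cytosol and enter through the channel of the outer membrane, the TOM complex, whose receptors and channel are encoded by the Tomm genes. Beyond it, small Tim chaperones of the intermembrane space escort hydrophobic carriers to the TIM22 complex, whereas precursors with a presequence pass the TIM23 channel and are pulled in by the import motor. Assembly factors then insert cofactors and join subunits into respiratory complexes without staying in them. Tubule cells of the kidney, above all those of the proximal tubule, are rich in mitochondria, and the transcription factor MYC is known to bind many genes of cell growth and mitochondrial biogenesis.

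RNA was sequenced from 18 whole kidneys of male C57BL/6 mice (C57BL/6J in the methods), each removed 12 h after 22.5 min of bilateral ischemia. The *Cxcl12* cohort held 5 *Cxcl12* KO and 3 *Cxcl12* control kidneys, and the *Myc* cohort held 5 *Myc* KO and 5 *Myc* control kidneys. All mice carried the floxed gene of their cohort and the Pax8rtTA transgene, and all received doxycycline for 14 days with a washout of 1 week before surgery at 10 to 12 weeks of age. KO mice carried TetOCre in addition and their littermate controls did not, so that an uninjured kidney and a kidney with TetOCre but without the floxed gene were not compared here. Pax8rtTA acts in tubule cells, so blood vessels, stroma, glomeruli and infiltrating cells keep the floxed gene in every mouse. In these bulk samples, fewer cells of a type and less RNA per cell cannot be told apart.

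Reads counted on genes numbered from 12918220 to 29749500 per kidney. A deeper group of 6 libraries, in which the unmapped share was below 5%, comprised *Cxcl12* KO 1 and 2, *Myc* KO 3 and 5, and *Myc* control 1 and 3. Each held 32532582 or more reads in all, and the other 12 held 26415146 or fewer. The methods state that the authors adjusted for batch effects with ComBat but name no batch, nor do the labels, and the counts used here are not adjusted. Whether the deeper group is a sequencing batch is not known. *Myc* CPM (read counts relative to library size, scaled by TMM over the 18 kidneys) were 26.6 to 37.0 in *Myc* KO and 79.7 to 117 in *Myc* control kidneys, with a log2 fold change of -1.61 (SE 0.116, adjusted p = 8.8e-05, edgeR). *Cxcl12* CPM were 26.3 to 40.9 in *Cxcl12* KO and 44.9 to 60.5 in *Cxcl12* control kidneys, without overlap, but the log2 fold change of -0.73 (SE 0.148) missed the threshold with an adjusted p of 0.094. The 7 proximal tubule markers, which include the phosphate transporter gene *Slc34a1* and the endocytic receptor genes *Lrp2* and *Cubn*, summed to 4230 to 6920 CPM per kidney, so the labelled tissue showed its defining markers, while the 3 lymphocyte markers summed to at most 0.915 CPM.

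Of the 54 genes, 50 passed the filter on low counts and were tested in each cohort. *Sco2*, a copper chaperone of complex IV, was counted 0 times in every kidney, and 91.8% of its exon bases lie in exons of *Ncaph2* or *Tymp*, where reads that fit more than 1 gene are not counted. *Tomm6*, a small TOM subunit, had 1 to 10 counts, and 84.2% of its exon bases are shared with other genes. *Tomm20l* and *Timm8a2*, paralogs of *Tomm20* and *Timm8a1*, had 0 to 4 and 0 to 2 counts. For *Sco2* and *Tomm6* the counts therefore leave expression undetermined.

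Levels of the 54 genes spanned orders of magnitude when divided by exon length. In RPKM (CPM divided by the exon length in kilobases), means over the 18 kidneys, *Timm8b*, a small Tim, stood highest with 78.7. *Coa3*, a factor that acts early in complex IV assembly, followed with 65.6 and *Timm13*, another small Tim, with 48.4. Within the TOM complex, the 7 tested genes lay between 2.03 (*Tomm40l*) and 35.1 (*Tomm7*). Paralogs were unequal: *Tomm40*, the channel, reached 15.1 against 2.03 for *Tomm40l*, and *Timm8b* reached 78.7 against 1.75 for *Timm8a1* and 0.0301 for *Timm8a2*. *Timm17a* at 10.7 and *Timm17b* at 7.68 were closer. The low values of *Timm23* (1.06), *Pam16* (1.23) and *Timm8a1* are uncertain, because 52.1%, 34.2% and 39.9% of their 75-base stretches occur in other annotated genes, where a read has no single place. Likewise, 64.3% of the exon bases of *Tomm40l*, 65.6% of *Ndufaf2*, 69.6% of *Sdhaf1* and 22.1% of *Timm10b* overlap exons of other genes.

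**Figure D1:**
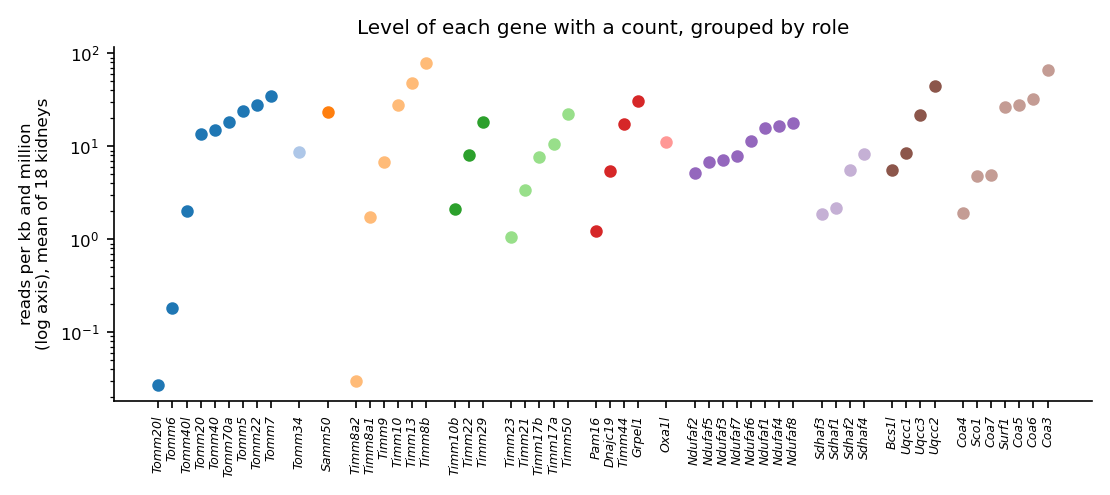
Mean level over 18 kidneys of the 53 genes with a count, in RPKM on a log axis, with 1 point per gene, ordered and coloured by role. Small Tims and complex IV factors hold the highest points, *Timm8b* at 78.7 and *Coa3* at 65.6, and *Tomm20l* and *Timm8a2* lie near 0.03.

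Whether tubular loss of *Myc* changed these genes was asked first. *Timm10* and *Tomm5*, which act in import, and *Ndufaf4* and *Bcs1l*, which act in assembly, fell in *Myc* KO kidneys, by 28.4% to 43.2%, and none of the 50 tested genes rose past the adjusted threshold. These 4 of 50 genes passed an adjusted p of 0.05 with edgeR's quasi-likelihood test, while 1.65% of the 14936 genes tested passed it in either direction, 1.29% lower and 0.355% higher. Without regard to a test, 48 of the 50 log2 fold changes were below 0, where 50.1% of all genes tested were. The median of the 50 was -0.24, with a range from -0.82 to 0.14, and the median over all genes was close to 0 (-0.00083). At an unadjusted p under 0.05 there were 25 of the 50 genes, all lower, against 21.9% of all genes tested, or 11.2% counting lower ones alone. The highest KO kidney lay below the lowest control kidney for 8 genes (*Timm10*, *Ndufaf4*, *Bcs1l*, *Tomm5*, *Tomm22*, *Timm8a1*, *Ndufaf1* and *Oxa1l*) and the lowest KO kidney above the highest control kidney for 0, and 3.92% and 2.05% of all genes tested showed these patterns.

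**Figure D2:**
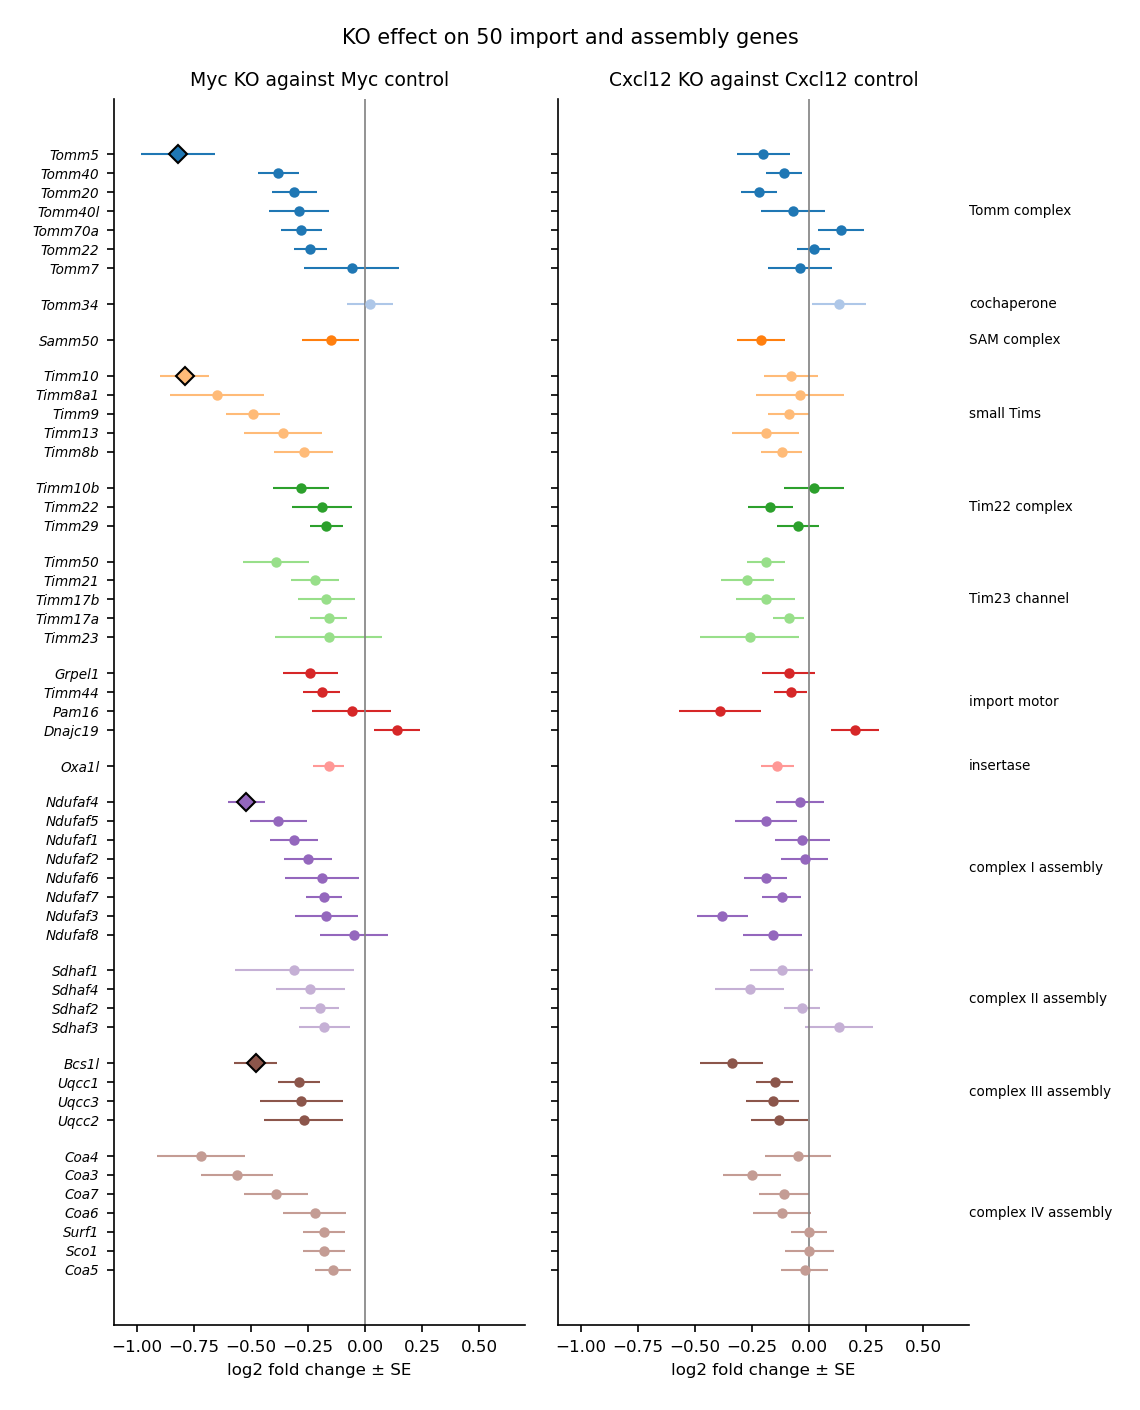
Log2 fold change of KO against control kidneys with its SE (bars) for 50 genes, grouped and coloured by role, for the *Myc* cohort (left, 5 against 5 kidneys) and the *Cxcl12* cohort (right, 5 against 3). Diamonds with black outlines mark the 4 genes with an adjusted p under 0.05, all in the *Myc* cohort, where 48 of 50 points lie left of 0.

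*Timm10* (chr2:84826997-84830213, GRCm38, plus strand) encodes a subunit of the small Tim chaperone that hands carrier proteins to TIM22. Its CPM were 16.3, 15.5, 14.9, 14.7 and 12.5 in *Myc* KO and 22.9, 29.5, 22.3, 28.6 and 24.0 in *Myc* control kidneys. The groups did not overlap, and means were 14.8 ± 1.43 and 25.5 ± 3.32 (SD, n = 5 each), a log2 fold change of -0.79 (SE 0.108, adjusted p = 0.010, edgeR). *Timm9*, its partner in the same chaperone, had 25.5, 21.5, 20.6, 21.4 and 19.3 CPM in KO and 30.2, 37.5, 23.8, 32.3 and 28.5 CPM in control kidneys. Here the groups overlapped in 1 kidney on each side, KO 1 lying above control 3, and the log2 fold change of -0.49 (SE 0.119) had an adjusted p of 0.059. Of the other small Tims, *Timm8a1* had a log2 fold change of -0.65 (adjusted p = 0.11), *Timm13* -0.36 (0.24) and *Timm8b* -0.27 (0.25), so that the median of the 5 tested small Tims was -0.49.

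The promoters of these genes are shown because MYC with its partner MAX binds the palindrome CACGTG, an E-box. RefSeq promoter sequences (GRCm38.p6, 250 bases before to 50 after the start) matched 49 of the 54 genes. The E-box occurred in 8 of the 49 (16.3%), in 7.24% of 27025 mouse promoters and in 9.95% of the 11119 promoters that belong to genes tested in the *Myc* cohort. The 49 include genes that were not tested. Of the tested genes with a promoter, 6 held the E-box and 39 did not, and these are the counts comparable with 9.95%. Among the 4 genes that fell, *Timm10* had it. Below, 30 bases around each E-box of the 6 tested genes that hold one are given 5′ to 3′ on the gene's strand, with the E-box in capitals.
Timm10, chr2:84827037-84827066, plus: ccggaagtgaccCACGTGcttcttatttcg
Timm9, chr12:71136716-71136745, minus: cctacattttccCACGTGgtaacgaatctg
Timm9, chr12:71136659-71136688, minus: catcactgccccCACGTGttctcagctttc
Timm8a1, chrX:134541889-134541918, minus: ccttcagtggacCACGTGggatgaagcaac
Timm8a1, chrX:134541629-134541658, minus: ccgtcacccagaCACGTGaaggtcggcaag
Coa3, chr11:101279004-101279033, minus: cccagaaaactcCACGTGgactacagctcc
Tomm20, chr8:126946030-126946059, minus: gcacgccacaaaCACGTGctgcccctgacc
Uqcc3, chr19:8880981-8881010, minus: tttctgtgtgtgCACGTGcgcgtgtgttta

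In *Timm10* the E-box began at base 29 counted from the RefSeq start. In *Timm9*, one E-box began 58 bases before the start and another 1 base before it. The other 2 promoters with an E-box belong to *Sco2* and *Tomm20l*, which were not tested. The 6 tested genes with an E-box had a median *Myc* log2 fold change of -0.52 and the 39 tested genes without one -0.24. Over the 11119 tested genes with a promoter, these medians were -0.03 with and -0.00 without the motif. These are descriptions of letters in a window, and binding was not measured.

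GCATGCG, the core of the site of NRF1, a factor known to act on nuclear genes of respiration, occurred on either strand in 4 of the 49 promoters (8.16%), those of *Ndufaf4*, *Ndufaf5*, *Grpel1* and *Timm13*. It occurred in 3.64% of all promoters and in 6.06% of those of tested genes. *Ndufaf4*, one of the 4 genes that fell, held it at more than one place. The windows are given in the same form with the core, or its reverse complement, in capitals, and the first place also matches on the other strand by overlap.
Ndufaf4, chr4:24897961-24897990, plus: cagatgtctgcGCATGCGcctgtgcggaag
Ndufaf4, chr4:24898074-24898103, plus: cccctggtgtgCGCATGCtccgtgcgtaca

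Other motifs were searched on both strands as well. CCGGAAG, the core of ETS factor sites, stood in 19 of the 49 promoters (38.8%), against 9.12% of all promoters and 17.0% of those of tested genes. CCAAT stood in 20 of 49 (40.8%), against 37.9% and 38.0%. The 18 tested genes with CCGGAAG had a median *Myc* log2 fold change of -0.24 and the 27 without it -0.27. For CCAAT these medians were -0.24 (18 genes) and -0.27 (27 genes), and for GCATGCG -0.37 (4 genes) and -0.24 (41 genes). Over the 11119 tested genes with a promoter, the medians with and without the motif were -0.07 and 0.01 for CCGGAAG. They were -0.01 and -0.0 for CCAAT and -0.07 and -0.0 for GCATGCG.

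*Tomm5* (chr4:45105208-45108114, minus strand) encodes a small subunit that stabilises the TOM channel. Its CPM were 15.6, 14.5, 11.8, 13.5 and 10.8 in *Myc* KO and 18.3, 25.8, 17.1, 29.5 and 25.7 in *Myc* control kidneys. The groups did not overlap, although the control kidneys of the deeper group, control 1 and 3, came close to the KO kidneys. The log2 fold change was -0.82 (SE 0.163, adjusted p = 0.031), the most negative of the 50. *Tomm40*, the channel itself, had 64.5, 54.2, 51.8, 52.7 and 47.6 CPM in KO and 64.4, 70.8, 66.2, 73.7 and 77.6 CPM in control kidneys. The groups overlapped because KO 1 lay just above control 1, and the log2 fold change of -0.38 (SE 0.0887) had an adjusted p of 0.053.

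The receptors of the TOM complex had smaller differences. *Tomm22*, the central receptor, gave -0.24 (adjusted p = 0.097), with KO kidneys at 39.2 to 44.4 and control kidneys at 45.0 to 53.3 CPM. *Tomm20*, the receptor for presequences, gave -0.31 (0.11), and *Tomm70a*, the receptor for carriers, -0.28 (0.12). In all, the 7 tested TOM genes had log2 fold changes from -0.82 to -0.06, 6 of them with an unadjusted p under 0.05 and 1 past the adjusted threshold. *Tomm7* at -0.06 was the exception. *Tomm34*, a cochaperone in the cytosol and not a TOM subunit, gave 0.02.

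The TIM23 channel, the import motor and the TIM22 complex had medians closer to 0 than the TOM genes (-0.29) and the small Tims (-0.49). This contrast was not tested. The 5 tested genes of the TIM23 channel had a median log2 fold change of -0.17, from -0.39 (*Timm50*, its receptor, adjusted p = 0.16) to -0.16 (*Timm17a* and *Timm23*). The 4 genes of the import motor had a median of -0.13 and spanned 0. *Grpel1*, its nucleotide exchange factor, gave -0.24 (0.27), *Timm44*, its anchor, -0.19 (0.20), and *Dnajc19*, its J protein, 0.14 (0.44), the highest of the 50. The 3 tested genes of the TIM22 complex had a median of -0.19, *Samm50*, which inserts barrel proteins into the outer membrane, gave -0.15 (0.50), and *Oxa1l*, the insertase of the inner membrane, -0.16 (0.21).

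*Ndufaf4* (chr4:24898083-24905001, plus strand) encodes a complex I assembly factor that works with NDUFAF3. Its CPM were 56.6, 48.7, 53.2, 49.3 and 53.5 in *Myc* KO and 78.9, 81.8, 63.5, 78.7 and 72.1 in *Myc* control kidneys. The groups did not overlap, and the log2 fold change was -0.52 (SE 0.0826, adjusted p = 0.014). *Ndufaf3* itself gave -0.17 (adjusted p = 0.48), and its groups, 10.7 to 14.2 and 10.2 to 16.1 CPM, overlapped. *Ndufaf5*, which modifies a complex I subunit, gave -0.38 (0.12) and *Ndufaf1*, a factor of the membrane arm, -0.31 (0.13). The 8 complex I factors had a median of -0.22, and all 8 were below 0.

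*Bcs1l* (chr1:74588289-74592443, plus strand) encodes the ATPase that places the Rieske iron-sulfur protein into complex III. It had 9.49, 9.86, 8.32, 9.06 and 9.26 CPM in *Myc* KO and 13.0, 13.4, 11.2, 13.1 and 13.6 CPM in *Myc* control kidneys. The groups did not overlap, and the log2 fold change was -0.48 (SE 0.0947, adjusted p = 0.030). *Uqcc1*, *Uqcc2* and *Uqcc3*, which act on newly made cytochrome b, gave -0.29, -0.27 and -0.28, with adjusted p-values of 0.11, 0.38 and 0.39.

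Among complex IV factors, *Coa4* had 4.75, 2.93, 3.38, 3.04 and 3.20 CPM in *Myc* KO and 6.17, 5.44, 3.89, 7.51 and 5.52 CPM in *Myc* control kidneys. Again KO 1 lay above control 3, and the log2 fold change of -0.72 (SE 0.192) had an adjusted p of 0.078. *Coa3* had 46.7, 48.9, 40.1, 43.2 and 39.3 CPM in KO and 50.1, 60.7, 48.7, 91.5 and 70.7 CPM in control kidneys. For *Coa3*, KO 2 lay just above control 3, the controls spread widely (64.3 ± 17.6 CPM), and the log2 fold change of -0.56 (SE 0.157) had an adjusted p of 0.090. The copper chaperone gene *Sco1* gave -0.18 (0.28) and *Surf1*, which acts on heme insertion, -0.18 (0.25). The 7 tested complex IV factors and the 4 complex II factors each had a median of -0.22, and all 11 were below 0.

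**Figure D3:**
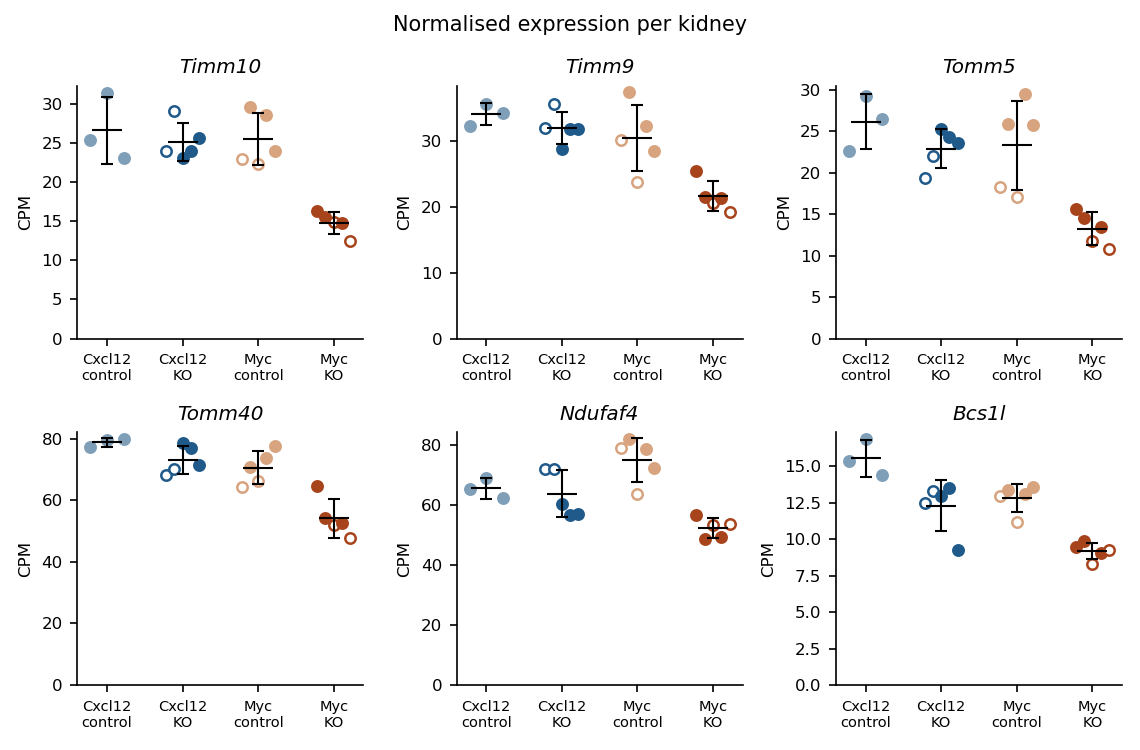
CPM of 6 genes in each kidney by group, with the mean and SD as bars, where open circles mark kidneys of the deeper group. In *Timm10*, *Tomm5*, *Ndufaf4* and *Bcs1l* the 5 *Myc* KO kidneys lie below the 5 *Myc* control kidneys, in *Timm9* and *Tomm40* 1 pair overlaps, and the *Cxcl12* groups overlap in all panels but *Bcs1l*.

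The 4 calls did not hold equally when the processing changed. Against 4 of the 50 in the edgeR fit, limma voom called 4 (1.44% of all genes tested), DESeq2 11 (7.63%) and a fit of all 18 kidneys 12 (4.29%). Over 20 other fits of the *Myc* cohort, 10 of them leaving out 1 kidney each, *Timm10* passed in 19, *Ndufaf4* in 15, *Tomm5* in 11 and *Bcs1l* in 9. Leaving out 1 kidney gave between 1 and 9 called genes, 9 without control 3 and 1 without KO 2, KO 3 or control 2. The count over all genes moved in the same way, from 246 to 877 without control 3 and to 21, 29 and 35 without KO 2, KO 3 and control 2. The size of the changes moved little, with log2 fold changes of *Timm10* from -0.83 to -0.73 and of *Ndufaf4* from -0.58 to -0.48 over these 20 fits. The fit of kidneys of the deeper group alone, given below, is not among the 20. It called neither gene and gave -0.72 for *Timm10* and -0.41 for *Ndufaf4*.

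Kidneys of the deeper group differed from the others in these genes within both *Myc* groups. A score, the mean over the 50 genes of log2 CPM centred per gene, was -0.08, -0.16, -0.29, -0.20 and -0.36 in *Myc* KO 1 to 5 and -0.07, 0.15, -0.13, 0.23 and 0.09 in *Myc* control 1 to 5. The pooled groups thus overlapped. Outside the deeper group, however, KO kidneys lay at -0.20 to -0.08 and control kidneys at 0.09 to 0.23, and within it KO kidneys lay at -0.36 and -0.29 and control kidneys at -0.13 and -0.07. Fitted outside the deeper group alone, 3 against 3, the median log2 fold change was -0.29 with 47 of 50 genes below 0, and *Tomm5* was the 1 gene called (0.0532% of all genes tested were). Within it, 2 against 2, the median was -0.21 with 42 of 50 below 0. There edgeR called 0 of the 50 and 0 of 15722 genes tested. At an unadjusted p under 0.05 there were 13 of the 50, against 8.52% of all genes tested. With the deeper group as a covariate, 11 of the 50 genes were called, all lower, beside 6.39% of all genes tested.

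**Figure D4:**
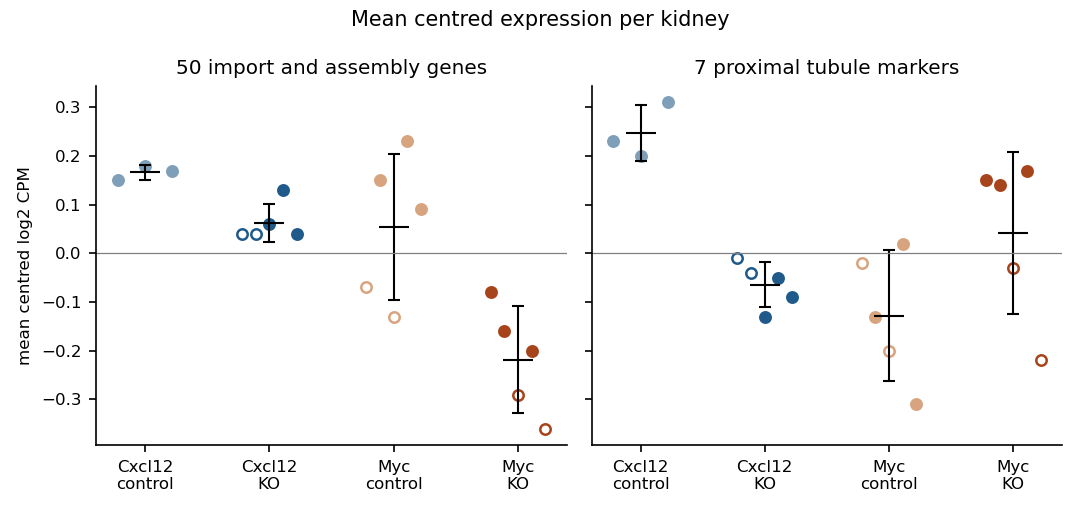
Mean centred log2 CPM per kidney of the 50 tested import and assembly genes (left) and of 7 proximal tubule markers (right), with group mean and SD as bars and open circles for the deeper group. On the left, *Myc* KO kidneys lie below *Myc* control kidneys among the filled and among the open circles, and on the right *Myc* KO kidneys do not lie lower as a group.

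Markers of cell types were read beside these genes in the *Myc* cohort. Of the 7 proximal tubule markers 1 was below 0, with a median log2 fold change of 0.18, and they summed to 4230 to 6920 CPM in KO and 4620 to 5790 CPM in control kidneys. The medians were 0.36 for 4 endothelial, 0.29 for 4 podocyte and 0.65 for 4 neutrophil markers, the last summing to 123 to 234 CPM in KO and 39.6 to 205 CPM in control kidneys. The injured tubule markers differed among themselves, with *Havcr1* at -1.32 (72.7 to 275 CPM in KO and 206 to 901 CPM in control kidneys, adjusted p = 0.12), *Krt20* at -0.02 and *Lcn2* at 0.39 (0.27). None of the tested markers passed the adjusted threshold with edgeR, the smallest adjusted p being 0.094 for the stroma marker *Col1a1*, and their part in the result was not tested.

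Whether tubular loss of *Cxcl12* acted on the same genes was asked next. None of the 50 genes passed the threshold in *Cxcl12* KO kidneys with edgeR, DESeq2 or limma voom. Of 15154 genes tested, the share called was 0.0% with edgeR and limma voom and 2.34% with DESeq2. At an unadjusted p under 0.05 there were 5 of the 50, all lower, against 13.0% of all genes tested, or 6.63% counting lower ones alone. Of the 50 log2 fold changes, 43 were below 0 (49.8% of all genes tested were), with a median of -0.12 and a range from -0.39 to 0.20. For 8 genes the highest KO kidney was below the lowest control kidney (*Ndufaf3*, *Tomm20*, *Bcs1l*, *Timm50*, *Pam16*, *Ndufaf6*, *Oxa1l* and *Timm17a*), a pattern that 4.72% of all genes tested showed. The opposite pattern was seen for 0 of the 50 and for 4.96% of all genes.

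*Ndufaf3*, the partner of *Ndufaf4*, had the smallest p. Its CPM were 11.8, 11.3, 13.7, 11.6 and 11.5 in *Cxcl12* KO and 14.5, 17.1 and 14.9 in *Cxcl12* control kidneys. The groups did not overlap, and the log2 fold change was -0.38 (SE 0.111, adjusted p = 0.20). *Bcs1l* had 12.5, 13.3, 13.0, 13.5 and 9.24 CPM in KO and 15.4, 16.9 and 14.4 CPM in control kidneys, a log2 fold change of -0.34 (SE 0.136, adjusted p = 0.34). The KO kidneys of *Bcs1l*, like those of *Oxa1l*, lay below their controls in both cohorts. How many of all genes tested share this joint pattern was not counted.

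None of the genes with the next smallest p-values passed the threshold either. *Pam16*, a regulator of the import motor, gave -0.39 (adjusted p = 0.39), with 2.36 to 3.22 CPM in KO and 3.23 to 3.83 in control kidneys. *Timm21*, which links TIM23 to respiratory complexes, gave -0.27 (0.37), and *Timm50* gave -0.19 (0.37). *Tomm20* gave -0.22 (0.30), *Samm50* -0.21 (0.43) and *Ndufaf6* -0.19 (0.41). The 5 TIM23 genes had a median of -0.19, the complex III factors -0.15 and the complex I factors -0.14, whereas TOM genes lay at -0.07 and small Tims at -0.09. *Dnajc19* (0.20), *Tomm70a* (0.14) and *Tomm34* and *Sdhaf3* (both 0.13) had the highest values.

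Of the 4 genes that fell in *Myc* KO kidneys, *Bcs1l* is given above, and the difference between its effects in the cohorts did not pass the test (-0.15 on the log2 scale, SE 0.156, edgeR adjusted p = 0.79). *Timm10* had 23.9, 29.1, 23.1, 23.9 and 25.6 CPM in *Cxcl12* KO and 25.3, 31.3 and 23.1 CPM in *Cxcl12* control kidneys. The groups overlapped, with a log2 fold change of -0.08 (SE 0.118, adjusted p = 0.80). *Ndufaf4* had 72.0, 72.0, 60.3, 56.7 and 56.9 CPM in KO and 65.2, 69.0 and 62.1 CPM in control kidneys. Its 2 highest KO kidneys were those of the deeper group, which has no *Cxcl12* control kidney, and the log2 fold change was -0.04 (SE 0.106). *Tomm5* gave -0.20 (SE 0.115, adjusted p = 0.50).

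The score of the 50 genes was 0.04, 0.04, 0.06, 0.13 and 0.04 in *Cxcl12* KO and 0.15, 0.18 and 0.17 in *Cxcl12* control kidneys, without overlap. Proximal tubule markers were also lower in value in KO kidneys, although none of them, nor any other marker tested, passed the adjusted threshold with edgeR (smallest adjusted p 0.11, for *Lcn2*). All 7 were below 0, with a median log2 fold change of -0.28, summing to 4920 to 5710 CPM in KO and 5820 to 6920 CPM in control kidneys, and their score was -0.13 to -0.01 against 0.20 to 0.31. Loop of Henle markers had a median of -0.37, injured tubule markers 0.65 and neutrophil markers 1.70, with neutrophil sums of 26.8 to 118 CPM in KO and 17.1 to 23.4 CPM in control kidneys. The part of these markers in the lower values was not tested. Outside the deeper group, 3 against 3, the median of the 50 genes was -0.09 with 42 below 0, and edgeR called 0 of them, beside 0.535% of all genes tested. At an unadjusted p under 0.05 there were 4 of the 50, against 13.5% of all genes.

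The KO effects of both cohorts were then compared in a fit over all 18 kidneys. None of the 50 genes differed between the cohorts at an adjusted p of 0.05 with edgeR, as did 0.0692% of the 15903 genes tested, and limma voom called 0 as well (0.0189% of all genes). DESeq2 called *Timm10* and *Ndufaf4*, beside 1.97% of all genes, and edgeR with the deeper group as a covariate called *Timm10* and *Tomm5*, beside 0.836%. At an unadjusted p under 0.05 in edgeR there were 9 of the 50, all with the lower value in the *Myc* cohort, against 11.4% of all genes tested, or 6.77% in that direction. *Timm10* came closest, with a difference of -0.71 on the log2 scale (SE 0.163, adjusted p = 0.074), meaning the more negative effect in *Myc* KO kidneys. *Ndufaf4* followed with -0.48 (SE 0.132, 0.13), *Tomm70a* with -0.42 (0.18), *Tomm22* with -0.27 (0.22) and *Tomm5* with -0.62 (0.25). TOM genes made up 4 of these 9 and small Tims 3.

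Set side by side, 43 genes had log2 fold changes below 0 in both cohorts, 5 in the *Myc* cohort alone and 2 (*Dnajc19* and *Tomm34*) in neither. The *Myc* value was the lower of the pair for 41 of the 50 genes, and in the fitted difference 41 were below 0 (51.0% of all genes tested) with a median of -0.15. Gene by gene the effects were weakly related across the 50 genes (Pearson's r 0.17, Spearman's rho 0.11), given as a description since genes of 1 set of libraries are not independent. The cohorts share no control kidneys. After a correction for gene length and GC, 45 of the 50 genes were below 0 in the *Myc* cohort and 34 in the *Cxcl12* cohort. The joint count of 43 therefore does not hold under that correction. How many of all genes tested lay below 0 in both cohorts was not counted.

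**Figure D5:**
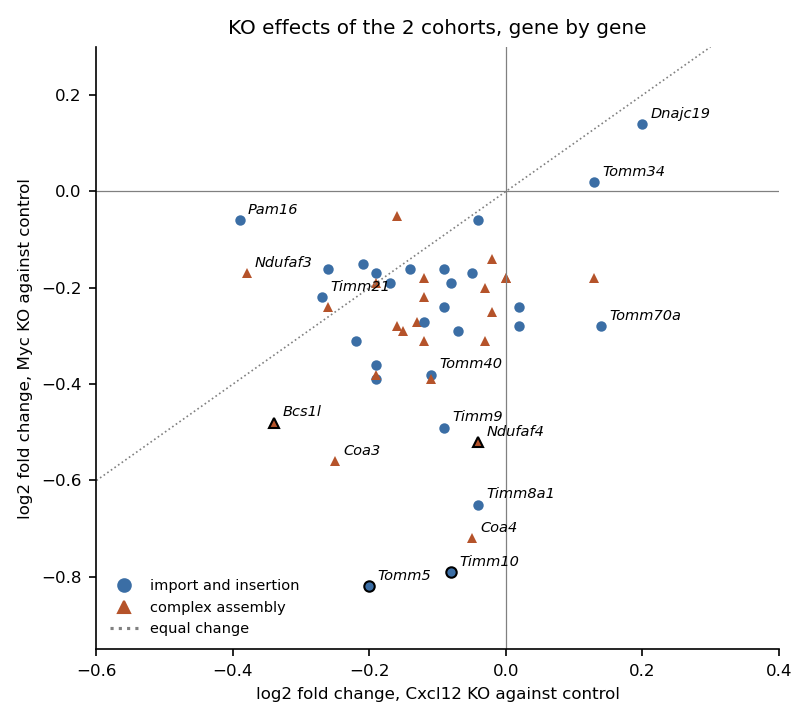
Log2 fold change in the *Cxcl12* cohort (x axis) against that in the *Myc* cohort (y axis) for 50 genes, circles for import and insertion and triangles for complex assembly, with a dotted line of equal change and black outlines for the 4 genes with an adjusted p under 0.05 in the *Myc* cohort. *Timm10*, *Coa4*, *Timm8a1* and *Ndufaf4* lie between -0.79 and -0.52 on the y axis and within 0.08 of 0 on the x axis, and 43 points lie in the lower left quadrant.

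Other genes of the same pathways were read from lists that hold none of the 54. In the *Myc* cohort, 1 of 48 tested genes of import, assembly and matrix folding was called, near the 1.65% of all genes. At an unadjusted p under 0.05 there were 16 of the 48 (21.9% of all genes), and 45 were below 0 with a median of -0.19. This gene was *Chchd4*, whose product imports and folds cysteine-rich proteins of the intermembrane space, small Tims among them. It had 39.2 ± 5.33 CPM in *Myc* KO and 57.4 ± 7.02 CPM in *Myc* control kidneys (SD, n = 5 each), with 32.7 to 46.9 CPM against 48.9 to 66.8 CPM. The groups did not overlap, with a log2 fold change of -0.55 (SE 0.109, adjusted p = 0.031, edgeR). In the *Cxcl12* cohort *Chchd4* gave -0.05 (adjusted p = 0.83), the lists had 0 of 48 genes called by edgeR and 5 at an unadjusted p under 0.05 (13.0% of all genes), and 36 were below 0 with a median of -0.11. By list, other import and processing genes had medians of -0.19 (*Myc* cohort) and -0.05 (*Cxcl12* cohort), other assembly factors -0.23 and -0.17, and matrix folding and proteolysis genes -0.16 and -0.08.

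Neighbouring gene groups placed these values. The 65 tested subunits of the respiratory chain, which the assembly factors serve, had medians of -0.13 in *Myc* and -0.17 in *Cxcl12* KO kidneys, with 0 called by edgeR in either. At an unadjusted p under 0.05 there were 3 of the 65 in the *Myc* cohort (21.9% of all genes) and 10 in the *Cxcl12* cohort (13.0%). The 77 tested mitochondrial ribosomal protein genes had medians of -0.28 and -0.10, with 4 called in the *Myc* cohort, all lower, and 0 in the *Cxcl12* cohort. Here 47 of the 77 had an unadjusted p under 0.05 in the *Myc* cohort and 10 in the *Cxcl12* cohort, against 21.9% and 13.0% of all genes. The median of the 50 import and assembly genes thus lay nearer to that of the mitochondrial ribosome in the *Myc* cohort (-0.24) and between both in the *Cxcl12* cohort (-0.12), and these differences between lists were not tested.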

How the data were processed

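The authors trimmed reads with Trimmomatic 0.32 and aligned and counted them with STAR 2.4.0 on GRCm38, per the labels and the methods. The deposited values are raw counts per gene, not normalized. The annotation behind them is not given in the sources used here. The strand-free column was used, because both stranded columns held about equal shares (51.8% to 52.4% and 52.3% to 52.8% of it), so reads of overlapping and antisense genes cannot be told apart. Totals of unmapped, multimapping, featureless and ambiguous reads were kept out of library sizes. Of the reads in all, 16.6% to 18.6% mapped to several places and 2.26% to 2.52% were ambiguous between genes. GENCODE vM21 on GRCm38 gave names, positions and exon lengths for 45143 of 45706 genes, and promoters came from RefSeq (GRCm38.p6).

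Genes with low counts were removed per cohort by filterByExpr, library sizes were adjusted by TMM, and genotypes were compared with the quasi-likelihood test of edgeR 4.0.16 (R 4.3.3). P-values are two-sided and were adjusted over all genes tested by the Benjamini-Hochberg method, with a threshold of 0.05. SE is the size of a log2 fold change divided by the square root of F. The difference of KO effects was fitted over 18 kidneys in 4 groups. RPKM are CPM per kilobase of exon, computed here. Scores used log2 CPM with a prior count of 2. The pipeline was tested on simulated data before use. Alternatives used limma 3.58.1, DESeq2 1.42.0, other count columns, size factors, filters and covariates, and each kidney left out. A length and GC correction (lowess, span 0.3) was added after the data were seen. The median exon length was 2831 bases in the 50 tested genes. Over all genes tested it was 4216 bases in the *Myc* and 4176 bases in the *Cxcl12* cohort.

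Named were the target genes, genes past the threshold, the 8 smallest p-values per cohort, the 3 highest and 3 lowest levels, untested genes, called genes of the pathway lists and paralogs. Other genes were named after their values were seen to complete a role or a count. The genes, lists and rules were chosen with earlier results of these data known, and the cut of the deeper group after its depth had been seen. The labels number the replicates, and the methods describe separate mice.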

Additional observations from a re-analysis of the deposited data

Results flagged for a closer look

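Among 81 groups of 5 kidneys examined, 7 had 1 kidney set apart from the other 4 beyond Dixon's 95% limit, and chance alone sets apart about 5% of such groups. *Bcs1l* was lowest in *Cxcl12* KO 5 with 9.24 CPM, the next kidney having 12.5, and in *Myc* control 3 with 11.2 CPM, the next having 13.0. *Coa4* was highest among *Myc* KO kidneys in KO 1, at 4.75 CPM against 3.38 in the next. *Ndufaf3* was highest among *Cxcl12* KO kidneys in KO 3, at 13.7 CPM against 11.8 in the next. *Tomm20l*, with 0 counts in the other 4 kidneys of each group, stood out with 0.044 CPM in *Cxcl12* KO 1 and 0.183 CPM in *Myc* KO 3. Beside 4 kidneys with 0 counts any count is set apart, so the share of 5% does not apply to *Tomm20l*. The score of the 50 tested genes was highest among *Cxcl12* KO kidneys in KO 4, at 0.133 against 0.056 in the next.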

How the results depend on the processing

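In the *Myc* cohort 4 genes were called. DESeq2 called 11, edgeR with the deeper group as a covariate 11, and a fit with all 18 kidneys 12, while kidneys outside the deeper group alone gave 1. The replicate block gave 1, *Timm10*, beside 18 of all genes. Leaving out each kidney gave 1 to 9 calls (KO 2, KO 3 and control 2 each 1, KO 4, KO 5, control 4 and control 5 each 2, control 3 9), while the count over all genes moved from 21 (without KO 2) to 877 (without control 3). Other size factors, no filter, limma voom and the stranded columns gave 3 to 5. With limma voom 1.44% of all genes tested were called. For the other settings of that range, and without KO 4, KO 5, control 4 or control 5, the share of all genes called is not given here. Those counts are therefore not read against it. The median log2 fold change stayed between -0.30 and -0.18. In the *Cxcl12* cohort 0 genes were called under every setting run, and the median ranged from -0.13 to -0.09, except for -0.08, with 34 of 50 genes below 0, after the length and GC correction, under which *Timm10* gave 0.09. In the *Myc* cohort this correction left -0.19, with 45 of 50 below 0. For the difference between cohorts, DESeq2 and the deeper group as a covariate each called 2 genes, all others 0. Within the cohorts, sign changes under these settings were in *Cxcl12* values near 0, which turned positive. They were *Ndufaf4* (0.06), *Tomm40l* (0.02) and *Sco1* (0.04) under the replicate block, *Sco1* (0.04) with column 3, *Sco1* with no filter and with all 18 kidneys (0.00), *Coa4* (0.01) with column 4, and *Timm8a1* with the covariate (0.02) or without the deeper group (0.01). Leaving out a kidney gave -0.18 to 0.05 for *Timm10*, -0.15 to 0.02 for *Coa4*, -0.17 to 0.07 for *Timm8a1* and -0.05 to 0.05 for *Sco1*. Among kidneys of the deeper group alone, *Ndufaf3* (0.12) and *Timm17b* (0.01) turned positive in the *Myc* cohort. Differences between cohorts changed sign for *Samm50* (-0.07) and *Timm17b* (-0.09) with the covariate, and for *Tomm20* (0.11), *Timm21* (-0.01) and *Timm17b* (-0.18) without the deeper group. *Ndufaf6*, whose difference was 0.0 in the main fit, gave -0.14 with the covariate and -0.01 under the replicate block. The causes were not tested. Whether replicate numbers pair kidneys could not be decided from so few pairs. Correlations of same-numbered kidneys ran from -0.0321 to 0.134 (mean 0.0676, 3 pairs) in the *Cxcl12* cohort. In the *Myc* cohort they ran from -0.211 to 0.402 (mean 0.053, 5 pairs). Other pairs ran from -0.131 to 0.191 (mean -0.0169) and from -0.522 to 0.479 (mean -0.0111). Over all pairs of the *Myc* cohort, same-numbered ones included, the correlations went with the deeper group. They were 0.275 to 0.479 where both kidneys belonged to it and -0.522 to -0.0446 where 1 did. Where neither did, they were -0.0212 to 0.378. The *Cxcl12* cohort had 3 control kidneys, and a p-value over the threshold does not show that values were equal. Genes under the filter were not tested.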

Other observations

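Some further assembly genes outside the 54, chosen after their values were seen, came close to the threshold. *Timmdc1*, which encodes a complex I assembly factor, had 20.8 to 21.3 CPM in *Myc* KO and 24.8 to 38.6 CPM in *Myc* control kidneys, with a log2 fold change of -0.50 (SE 0.116, adjusted p = 0.052, edgeR). *Tmem70*, whose product acts in the assembly of ATP synthase, had 46.7 to 57.8 against 62.3 to 80.4 CPM and gave -0.36 (SE 0.0869, adjusted p = 0.062). *Cox10*, an enzyme gene of heme A synthesis for complex IV, had 19.2 to 23.2 against 24.7 to 26.7 CPM and gave -0.27 (SE 0.0726, adjusted p = 0.081). In none of these 3 genes did KO and control kidneys overlap. Of the 48 tested genes on the pathway lists, 7 had all *Myc* KO kidneys below every *Myc* control kidney, against 3.92% of all genes tested. In the *Cxcl12* cohort their log2 fold changes were -0.11, -0.06 and -0.18, with adjusted p-values of 0.75, 0.84 and 0.44. There the complex I assembly genes *Ecsit* and *Foxred1* stood lowest by p. *Ecsit* had 41.2 to 45.7 CPM in *Cxcl12* KO and 52.6 to 57.2 CPM in *Cxcl12* control kidneys, with a log2 fold change of -0.31 (SE 0.0758, adjusted p = 0.13), and *Foxred1* had 27.3 to 30.9 against 32.9 to 37.8 CPM, with -0.28 (SE 0.0852, adjusted p = 0.22). All *Cxcl12* KO kidneys lay below every *Cxcl12* control kidney for 7 of the 48 list genes, against 4.72% of all genes tested. The KO kidneys of *Foxred1* also lay below the controls in the *Myc* cohort, at 23.5 to 26.5 against 27.4 to 32.4 CPM (log2 fold change -0.23, adjusted p = 0.11). How many of all genes tested do so in both cohorts was not counted.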
